A study of Mus musculus with 6 samples.

Results

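Replication-dependent histone genes encode the linker histone H1 and the core histones H2A, H2B, H3 and H4 that are made in bulk when chromosomes are copied. On the array they were found by their gene names, which begin with Hist and give the cluster and the histone class, and each gene was read by its probe with the highest mean signal over the 6 arrays. This gave 34 genes from 44 probes, of 27961 genes on the array: 6 for H1, 11 for H2A, 8 for H2B, 3 for H3 and 6 for H4. Of these, 24 lie in the Hist1 cluster on chromosome 13, 6 in Hist2 on chromosome 3, 3 in Hist3 on chromosome 11 and 1 in Hist4 on chromosome 6. RefSeq's annotation of GRCm38.p6 gives such a name to 70 genes, 67 of them protein coding, of which these 34 are on the array. Of the members, 28 were well above background on all 6 arrays. Testing required a probe well above background in both replicates of some group, which held for 30 of the 34 members and for 14973 of all genes. The members left untested were Hist1h1t, Hist1h2ac, Hist1h2be and Hist2h2aa2.

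The arrays were hybridised with RNA from mouse embryonic stem cells of the V6.5 line (C57BL/6 129SV mixed background) that carry DAZL fused to GFP and V5, were depleted of feeder cells and were differentiated for 12 days, which the labels call primordial germ cells made in vitro. RNA was recovered after ultraviolet crosslinking with an antibody to GFP, here the GFP IP (2 arrays), or with an antibody to the poly(A)-binding protein PABP1, the PABP1 IP (2 arrays). Total input RNA, taken with no antibody, was read on 2 arrays. All 3 groups carry the tagged DAZL, and no group comes from cells without the tag or from an unrelated antibody. Nothing in the labels marks replicates as separate cultures, so a p-value here reflects array-to-array spread that may be technical.

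Histone messages of this kind have no introns and end, in most cases, in a short stem-loop in place of a poly(A) tail. The stem-loop is bound by SLBP, which carries the message through processing, export and translation, and the message is destroyed when DNA synthesis stops. PABP1 binds poly(A) tails, and DAZL is an RNA-binding protein of germ cells that binds the ends of messages beyond the coding part and also contacts poly(A)-binding proteins. Some histone genes can also give polyadenylated messages, which in human cells has been reported for the counterparts of Hist1h1c, Hist1h2ac, Hist1h2bc and Hist2h2be. The labels name the maker's one-colour amplification but not its primer, so how well messages without a tail were copied was not tested.

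Promoters of the members hold short elements that differ by class, which are shown for H2B and H1 genes that the results below describe, among them Hist1h1b and Hist1h1c, whose differences from input in the PABP1 IP had opposite signs. The 250 bases before the start of a gene were searched on both strands in RefSeq's promoter table (GRCm38.p6), which held 29 of the 34 members. The letters ATTTGCAT, the octamer element best known from H2B promoters, were found in 4 of 5 H2B genes, 6 of 11 H2A genes and 0 genes of the other classes, against 1.81% of 27025 genes in the table. AAACACA, an element known from H1 promoters, was found in 5 of 6 H1 genes, 2 of 11 H2A genes and 2 of 5 H2B genes, against 7.2% of all genes. CCAAT was found in 25 of the 29 members, against 37.5% of all genes, and TATAAA in 16, against 14.3%. In the 150 bases before the start shown here, capitals mark matches on either strand to the octamer in the H2B genes, to the H1 element in the H1 genes, and to the other letters searched in both:
Hist1h2bk, chr13:22035671-22035820, plus strand: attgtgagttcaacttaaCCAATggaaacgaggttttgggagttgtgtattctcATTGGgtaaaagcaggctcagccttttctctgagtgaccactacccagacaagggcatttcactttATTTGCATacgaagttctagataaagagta
Hist1h2bm, chr13:21721894-21722043, plus strand: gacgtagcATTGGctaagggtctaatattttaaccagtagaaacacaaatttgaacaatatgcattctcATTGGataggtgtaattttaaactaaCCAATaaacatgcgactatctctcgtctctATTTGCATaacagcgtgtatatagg
Hist1h1b, chr13:21780626-21780775, minus strand: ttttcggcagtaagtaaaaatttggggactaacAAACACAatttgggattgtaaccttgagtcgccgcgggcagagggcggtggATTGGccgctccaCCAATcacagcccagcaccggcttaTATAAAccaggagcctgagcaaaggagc
Hist1h1c, chr13:23738657-23738806, plus strand: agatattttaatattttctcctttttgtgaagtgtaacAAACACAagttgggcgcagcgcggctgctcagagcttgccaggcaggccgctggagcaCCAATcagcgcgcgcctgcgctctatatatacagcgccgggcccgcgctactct
A match describes these letters in this window and shows no binding. Hist1h2bk and Hist1h2bm encode H2B, Hist1h1b encodes a linker histone of dividing cells, and Hist1h1c encodes a linker histone and was the tested H1 gene that was not lower than input in either IP.

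Signals are given as multiples of the 75th percentile of all probes of the same array, and a probe's signal is compared only with itself on other arrays. Between 41.5% and 52.6% of spots were well above background on an array, 0 were saturated, and replicates correlated at 0.981 to 0.992 across genes. Slide 1 holds GFP IP replicate 2, PABP1 IP replicate 1 and both arrays of input, and slide 2 holds replicate 1 of the GFP IP with replicate 2 of the PABP1 IP. Dazl itself, which encodes the tagged protein, read 9.20 and 15.0 in the GFP IP, 0.237 and 0.242 in the PABP1 IP, and 0.883 and 0.807 in input, so it was 13.9-fold above input in the GFP IP (adjusted p = 0.00143). Of 10 markers of primordial germ cells, 8 are on the array and 7 were tested. The germ cell marker Ddx4 was well above background on only 2 arrays, while Dppa3, a gene of early germ cells, was well above background on all 6. Markers of other cells were present as well: 5 of 6 cardiac muscle markers and 4 of 4 fibroblast markers were tested, against 1 of 5 of visceral endoderm, where Afp, Ttr, Apoa1 and Cubn were not well above background on any array. The input arrays read RNA of a whole culture, and the IP arrays read RNA recovered from one with an antibody. Fewer cells with a transcript and less of it per cell therefore cannot be told apart, and an IP signal also depends on recovery.

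**Figure D1:**
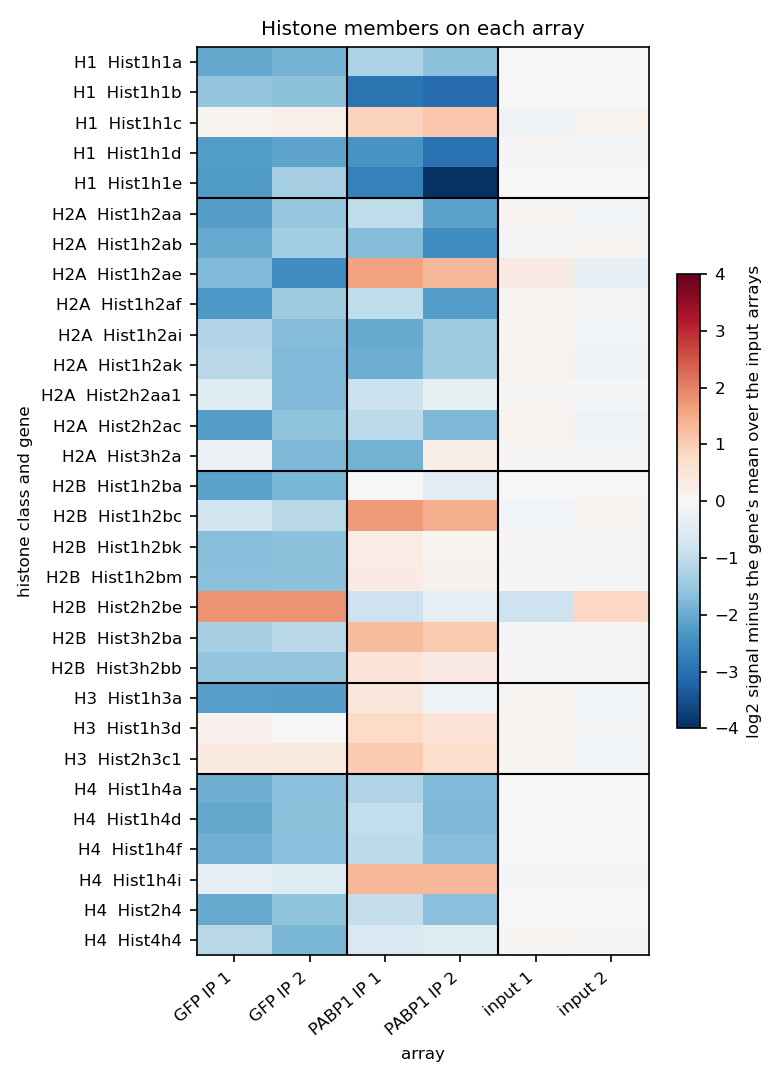
Log2 signal of the 30 tested members on each of the 6 arrays, minus the gene's mean over the input arrays, with rows grouped by class and columns grouped as GFP IP, PABP1 IP and input. H2B genes are below input on the GFP IP arrays and near or above input on the PABP1 IP arrays, except Hist2h2be, and with spike-in scaling all 7 H2B genes were above input in the PABP1 IP.

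Setting the GFP IP against input asks what RNA was enriched with tagged DAZL. Most histone members were lower in the GFP IP, by 1.91-fold to 4.54-fold where the fold could be measured. Of the 30 tested, 23 were lower, 1 was higher and 6 did not pass (limma, adjusted p under 0.05; 24 and 1 at an unadjusted p under 0.05), against 36.6% lower and 18.5% higher of all genes. The median difference of the members was -1.67 on the log2 scale, against -0.51 for all genes, a shift of -1.16 relative to them. Lower calls were made for 4 of 5 H1 genes, 7 of 9 H2A genes, 6 of 7 H2B genes, 1 of 3 H3 genes and 5 of 6 H4 genes. The 7 H2A calls include Hist1h2ae, which was not well above background on any GFP IP or input array, so no fold is given for it. Class medians relative to all genes were -1.30 for H1, -1.19 for H2A, -1.07 for H2B and -1.29 for H4, but 0.61 for H3. With slide as a block, 26 members were lower and 0 higher (median -1.56), and on slide 1 alone 25 were lower and 0 higher (-1.64). Without total input replicate 1, 14 members were lower and 0 higher. The H2A count rests most on the input arrays and the scaling: 1 of 9 was lower without total input replicate 1, 4 without replicate 2 and 2 after cyclic loess, while 5, 5 and 6 of 7 H2B genes were lower there.

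These directions are relative to the array's 75th percentile, and the split of calls moved with the scaling. Over all genes, 2769 were higher and 5479 lower in the GFP IP than in input. The split was 3624 and 1733 when arrays were scaled to the median of all probes (median of all genes 0.07), 3696 and 3644 after cyclic loess (-0.12), and 4000 and 325 with spike-in scaling (0.50). Among the members, limma called 2 higher and 0 lower with spike-in scaling (4 and 3 at an unadjusted p under 0.05), although the medians of H1, H2A, H2B and H4 stayed below 0 there, at -0.80, -0.69, -0.57 and -0.79.

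Setting the PABP1 IP against the same input arrays asks what was enriched with the poly(A)-binding protein. Here the histone classes split: H1, H2A and H4 genes were mostly lower than input, a direction that turned for H2A and H4 with spike-in scaling, and 7 members were higher, by 1.59-fold to 2.98-fold. The linker histone genes Hist1h1e, Hist1h1b and Hist1h1d had the largest differences of all members, 10.0-fold, 7.89-fold and 6.36-fold lower than input. Of the 30 tested members, 14 were lower, 7 higher and 9 did not pass, against 23.8% lower and 30.1% higher of all genes. The median difference of the members was -0.72. Lower calls were made for 4 of 5 H1 genes, 6 of 9 H2A genes, 0 of 7 H2B genes, 0 of 3 H3 genes and 4 of 6 H4 genes (limma; for H2B and H3 also 0 at an unadjusted p under 0.05). Higher calls were made for Hist1h1c, Hist1h2ae, Hist1h2bc, Hist3h2ba, Hist1h3d, Hist2h3c1 and Hist1h4i. Class medians relative to all genes, whose median was 0.12, were -2.79 for H1, -1.71 for H2A, 0.13 for H2B, 0.55 for H3 and -1.47 for H4.

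With slide as a block, 17 members were lower and 8 higher in the PABP1 IP than in input (median -1.04), and on slide 1 alone 16 were lower and 7 higher (-0.91). Leaving out either input array gave 9 lower and 4 higher, with 3 of 9 H2A genes lower in each case, 1 of 6 H4 genes lower without total input replicate 1 and 2 of 6 without replicate 2, and 0 of 3 H3 genes higher. The count of 0 lower H2B genes did not hold without total input replicate 1, nor with normexp background correction of all 6 arrays. With normexp 1 of 7 H2B genes was lower and 5 were higher, at a median of 0.70. Over all genes, 4502 were higher and 3570 lower, against 12752 and 222 with spike-in scaling, which moved the median of all genes to 2.40. On that scale 16 members were higher and 0 lower (the same counts at an unadjusted p under 0.05), the medians of H2A and H4 turned to 0.69 and 0.93, and that of H1 was -0.39. The H2B median of 0.25 turned to -0.03 after quantile normalization and -0.12 after cyclic loess, so its side of input is not settled.

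**Figure D2:**
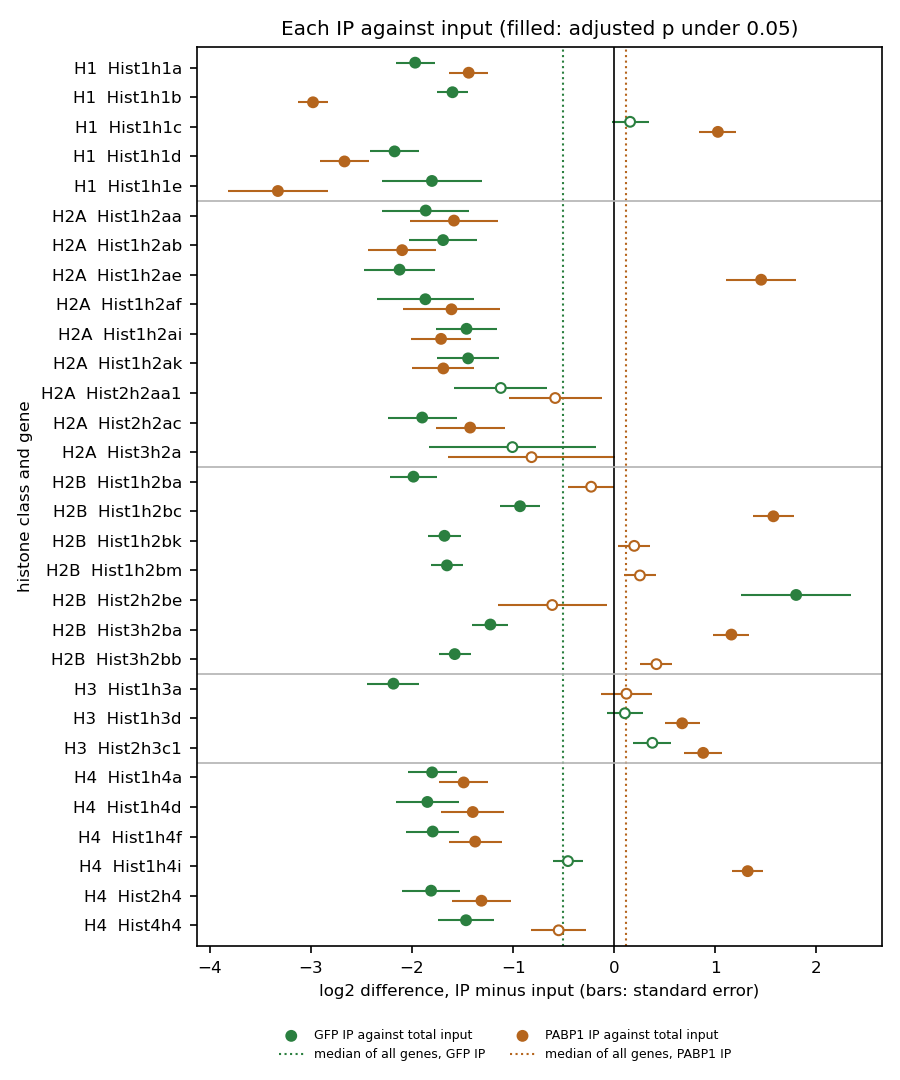
Log2 difference from input of each tested member in the GFP IP (green) and the PABP1 IP (brown), with standard errors from limma, filled where the adjusted p is under 0.05. Dotted lines mark the medians of all genes, -0.51 and 0.12, and input arrays are shared by both comparisons; with spike-in scaling the PABP1 IP medians of H2A and H4 lie above 0.

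Setting the GFP IP against the PABP1 IP needs no input array. The H2B genes Hist1h2ba, Hist1h2bc, Hist1h2bk, Hist1h2bm, Hist3h2ba and Hist3h2bb were lower in the GFP IP, by 3.38-fold to 5.68-fold. Among H1 genes Hist1h1b and Hist1h1e were higher in the GFP IP, calls that did not hold with spike-in scaling, and Hist1h1c was lower. Of the 30 members, 12 were lower, 3 higher and 15 did not pass, against 41.3% lower and 22.3% higher of all genes. H2B accounted for 6 of the lower calls and 1 of the higher ones, and H1 for 2 of the higher ones. The median of H2B lay 1.33 below that of all genes, which was -0.58, while H1 lay 1.08 above it and H2A, H3 and H4 lay 0.32, 0.02 and 0.11 above it. With slide as a block 17 members were lower and 5 higher, and on slide 1 alone 15 were lower and 2 higher. The median of the members was -0.50 with or without the block and -0.66 on slide 1 alone.

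Outside H2B the class medians between the IPs changed sign with the scaling, while Hist1h3a, Hist1h4i and Hist1h2ae were lower in the GFP IP in every alternative run for them. Over all genes, 3337 were higher and 6186 lower in the GFP IP than in the PABP1 IP, against 3805 and 4125 scaled to each array's median (median of all genes -0.20), 4626 and 4109 after cyclic loess (-0.06) and 734 and 10204 with spike-in scaling (-1.86). Cyclic loess gave 13 members higher and quantile normalization 10, and turned the medians of H2A, H3 and H4, which were -0.26, -0.57 and -0.47, to 1.31, 0.75 and 0.61 and to 0.91, 0.76 and 0.29. With the median of all probes the H2A median turned to 0.13. Spike-in scaling turned the H1 median from positive (0.50) to -0.78. The H2B median stayed below 0 in these settings, between -3.18 and -1.03, and 6 of its 7 tested genes were lower in each of them.

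**Figure D3:**
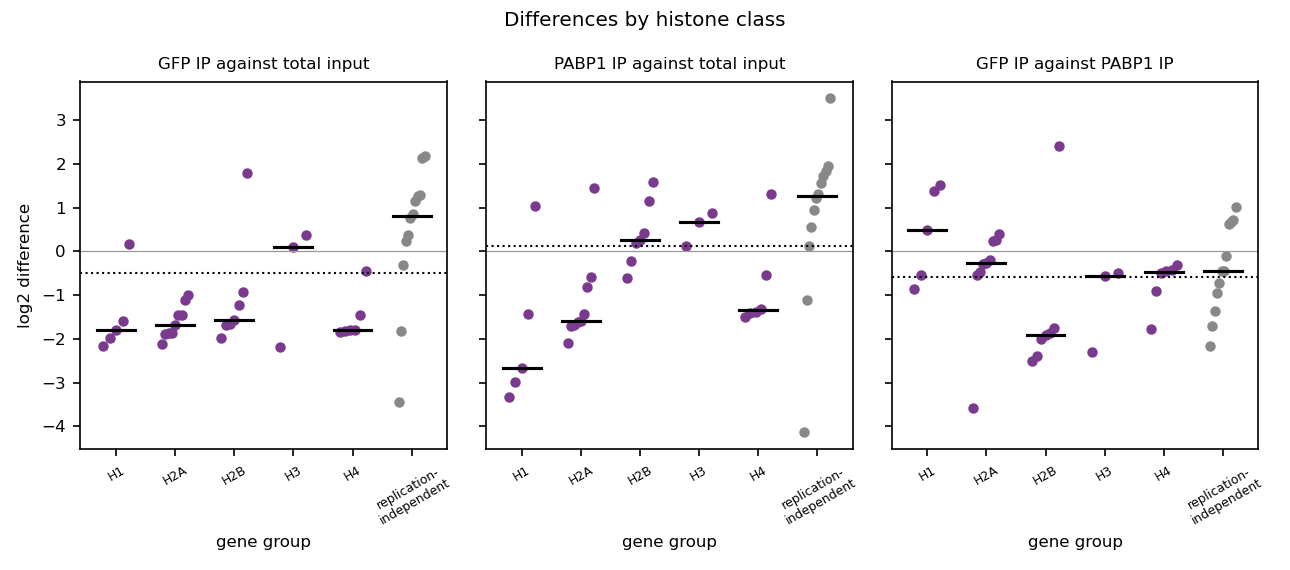
Log2 differences of the tested members by class and of 12 tested replication-independent histone genes (grey), with group medians (bars) and the median of all genes (dotted line). H2B lies apart from the other classes between the IPs, at a median of -1.91, while the medians of H2A, H3 and H4 turn positive there after cyclic loess.

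Linker histone genes differed from each other. Hist1h1b read 2.69 and 2.54 in the GFP IP, 1.05 and 0.965 in the PABP1 IP, and 7.96 and 7.91 in input. The 3 groups did not overlap, with the PABP1 IP lowest. The difference from input was -1.60 ± 0.15 (SE, n = 2 arrays per group) in the GFP IP and -2.98 ± 0.15 in the PABP1 IP (limma, adjusted p = 0.00196 and 0.000849), and the GFP IP was 2.60-fold above the PABP1 IP (adjusted p = 0.00108). With spike-in scaling the last difference was 0.11 (adjusted p = 0.86). The calls against input did not hold on that scale either, where 0 of the 5 tested H1 genes were lower than input in either IP.

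Hist1h1e, another linker histone gene, read 6.80 and 12.9 in the GFP IP, 5.01 and 2.13 in the PABP1 IP, and 33.1 and 32.4 in input. In both IPs the slide 2 array was the lower one. The GFP IP was 3.49-fold below input (adjusted p = 0.0292) and 2.87-fold above the PABP1 IP (adjusted p = 0.0421). The call against input did not hold after quantile normalization (-1.60, adjusted p = 0.0508), after cyclic loess (-1.41, adjusted p = 0.0688), with spike-in scaling (-0.80, adjusted p = 0.293) or without GFP IP replicate 1 (-1.34, adjusted p = 0.115), total input replicate 1 (adjusted p = 0.111) or replicate 2 (adjusted p = 0.0982). The call between the IPs did not hold with spike-in scaling (0.25, adjusted p = 0.676), with no filter on dim probes (adjusted p = 0.0829), in a fit of only the 4 IP arrays (adjusted p = 0.0712) or without either input array (adjusted p = 0.0712), GFP IP replicate 2 (1.06, adjusted p = 0.156) or PABP1 IP replicate 2 (0.91, adjusted p = 0.132). With slide as a block the difference from input was -1.26 in the GFP IP (adjusted p = 0.00345) and -2.78 in the PABP1 IP (adjusted p = 0.000914). Hist1h1d gave 1.43 and 1.59 in the GFP IP, 1.32 and 0.866 in the PABP1 IP, and 7.05 and 6.57 in input. Its 0.50 ± 0.24 between the IPs did not pass (adjusted p = 0.126), but did with slide as a block (adjusted p = 0.0434). It also passed with arrays scaled to their median and after cyclic loess, where 3 of the 5 tested H1 genes were higher in the GFP IP. Hist1h1a gave 1.59 and 1.74 in the GFP IP, 2.75 and 2.09 in the PABP1 IP, and 6.61 and 6.39 in input. Of Hist1h1a, Hist1h1b, Hist1h1d and Hist1h1e, Hist1h1a alone was lower in the GFP IP than in the PABP1 IP on every array. Its difference was -0.53 (adjusted p = 0.0578, and 0.0202 with slide as a block).

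Hist1h1c, one of the members with polyadenylated forms reported in human cells, went the other way. It read 1.19 and 1.29 in the GFP IP, 2.13 and 2.41 in the PABP1 IP, and 1.00 and 1.23 in input. The PABP1 IP arrays were above all others and the GFP IP overlapped input. The difference from input was 0.16 ± 0.18 in the GFP IP (adjusted p = 0.486) and 1.03 ± 0.18 in the PABP1 IP (adjusted p = 0.00703), and the GFP IP was 1.83-fold lower than the PABP1 IP (adjusted p = 0.00978). The last call did not hold when arrays were scaled to their median (-0.48, adjusted p = 0.193), after cyclic loess (-0.56, adjusted p = 0.0517) or on slide 1 alone (-0.72, adjusted p = 0.0661). Hist1h1t, the linker histone of the testis, was well above background on 2 arrays, PABP1 IP replicate 2 and total input replicate 2, and was not tested.

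**Figure D4:**
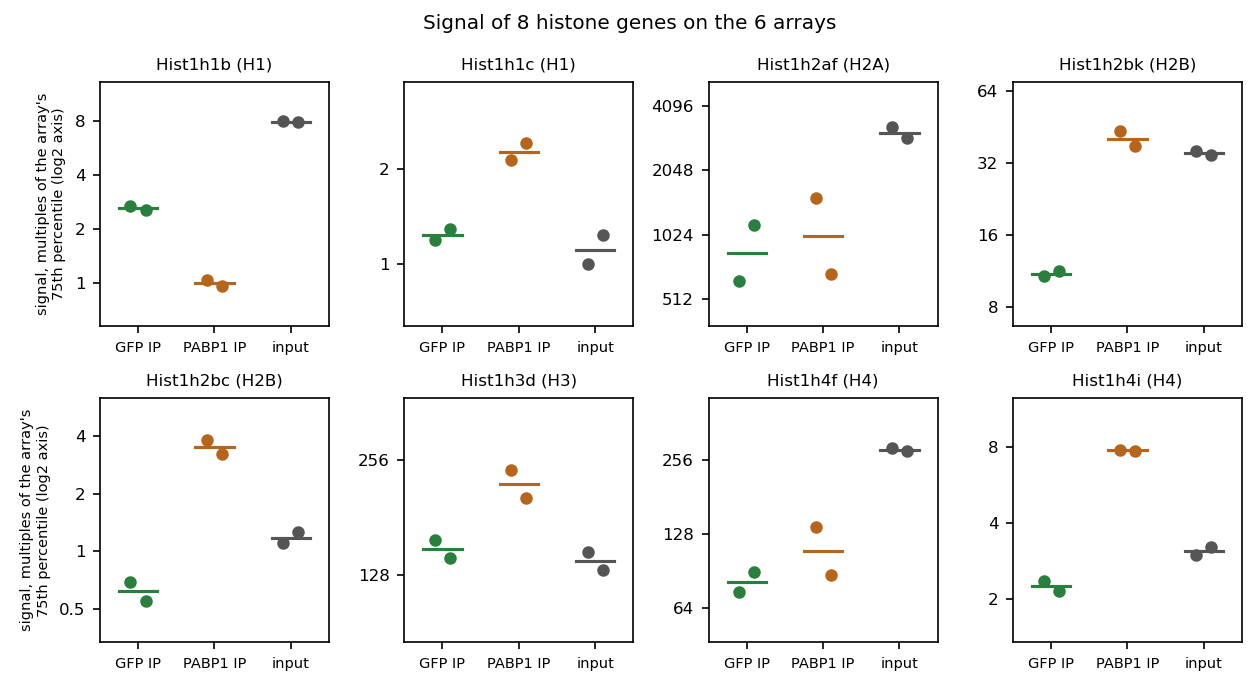
Signal of 8 members on each array, in multiples of the array's 75th percentile on a log2 axis, with points for arrays and bars for geometric means. Hist1h1c, Hist1h2bc and Hist1h4i are highest in the PABP1 IP, while Hist1h1b, Hist1h2af and Hist1h4f are highest in input.

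Core histone H2A genes were mostly below input on the IP arrays, although with spike-in scaling their median in the PABP1 IP was above it. Hist1h2af read 624 and 1141 in the GFP IP, 1519.6 and 670.4 in the PABP1 IP, and 3279 and 2893 in input. Each IP was below input and the IPs overlapped each other. The difference from input was -1.87 ± 0.48 in the GFP IP (adjusted p = 0.023) and -1.61 ± 0.48 in the PABP1 IP (adjusted p = 0.0362). After cyclic loess the GFP IP difference was -0.77 (adjusted p = 0.165), after quantile normalization -0.48 (adjusted p = 0.253), and without total input replicate 1 -1.78 (adjusted p = 0.102). The PABP1 IP difference turned to 0.67 with spike-in scaling (adjusted p = 0.229).

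Hist1h2ab, also an H2A gene, read 6.93 and 10.7 in the GFP IP, 8.43 and 5.02 in the PABP1 IP, and 26.4 and 29.3 in input. It was 3.23-fold lower in the GFP IP (adjusted p = 0.0106) and 4.28-fold lower in the PABP1 IP (adjusted p = 0.00498) than in input. Hist2h2ac, of the Hist2 cluster, was lower than input by 1.90 in the GFP IP and by 1.42 in the PABP1 IP on the log2 scale (adjusted p = 0.00782 and 0.0183). For Hist2h2ac the GFP IP difference was -0.80 after cyclic loess (adjusted p = 0.0584), -0.89 with spike-in scaling (adjusted p = 0.224) and -1.75 without total input replicate 1 (adjusted p = 0.0521), and the PABP1 IP difference turned to 0.85 with spike-in scaling (adjusted p = 0.124). Hist1h2ai and Hist1h2ak were 2.75-fold and 2.72-fold lower than input in the GFP IP, and 3.28-fold and 3.23-fold lower in the PABP1 IP. Their GFP IP calls did not hold after cyclic loess (-0.84 and -0.75, adjusted p = 0.0797 and 0.111) or with arrays scaled to their median (-0.88 and -0.87, adjusted p = 0.154 and 0.165). Between the IPs none of these H2A genes passed, at adjusted p from 0.263 to 0.648, and with slide as a block Hist1h2ab (0.41, adjusted p = 0.0441) and Hist2h2ac (-0.47, adjusted p = 0.0469) did.

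Hist1h2ae stood apart from the other H2A genes and was dim. Its signal was 0.034 and 0.0206 in the GFP IP, 0.352 and 0.283 in the PABP1 IP, and 0.145 and 0.0915 in input, and only the PABP1 IP arrays were well above background. The PABP1 IP was at least 2.61-fold above input (adjusted p = 0.0186), and the GFP IP at least 6.05-fold lower than the PABP1 IP (adjusted p = 0.000807). After normexp background correction the difference of the PABP1 IP from input was 0.01 (adjusted p = 0.971).

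Hist2h2aa1 and Hist3h2a had replicates that followed the slide. Hist3h2a read 58.5 and 19.7 in the GFP IP, 18.5 and 81.0 in the PABP1 IP, and 70.6 and 66.0 in input. The high array of each IP was the one on slide 2, which holds no input array. Its difference from input was -1.01 ± 0.83 in the GFP IP (adjusted p = 0.332) and -0.82 ± 0.83 in the PABP1 IP (adjusted p = 0.446), and with slide as a block -1.93 and -1.74 (adjusted p = 0.00248 and 0.00218). The other Hist3h2a probes disagreed: a dimmer one gave -1.58 and -2.28 for the GFP IP and the PABP1 IP against input, and another gave 1.69 and 1.80. Hist2h2aa1 read 2.33 and 0.955 in the GFP IP, 1.77 and 2.65 in the PABP1 IP, and 3.36 and 3.14 in input, and its difference from input was -1.12 and -0.58 (adjusted p = 0.0875 and 0.331), or -1.59 and -1.05 with slide as a block (adjusted p = 0.00471 and 0.0146).

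Core histone H2B genes were lower in the GFP IP than in the PABP1 IP under each scaling, except Hist2h2be. Hist1h2bk, whose promoter holds the octamer letters shown above, read 10.7 and 11.3 in the GFP IP, 43.5 and 37.5 in the PABP1 IP, and 36.1 and 34.4 in input. The GFP IP arrays were the low ones and the PABP1 IP arrays lay just above input. The GFP IP was 3.20-fold below input (-1.68 ± 0.16, adjusted p = 0.00202) and 3.67-fold below the PABP1 IP (-1.88 ± 0.16, adjusted p = 0.000597), while the PABP1 IP differed from input by 0.20 ± 0.16 (adjusted p = 0.346). A dimmer probe of the gene gave -1.55, -1.65 and 0.10 for the same comparisons.

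Hist1h2bm and Hist3h2bb had nearly the same profile. Hist1h2bm read 11 and 11.2 in the GFP IP, 44.1 and 39.4 in the PABP1 IP, and 36.4 and 33.6 in input. Hist3h2bb, which RefSeq lists as a transcribed pseudogene (H2bu1-ps), read 7 and 6.99 in the GFP IP, 29.9 and 26.0 in the PABP1 IP, and 21.4 and 20.4 in input. The GFP IP was 3.75-fold and 3.99-fold lower than the PABP1 IP for Hist1h2bm and Hist3h2bb (adjusted p = 0.000549 and 0.00053). Hist3h2bb differed from input by 0.42 in the PABP1 IP (adjusted p = 0.0734, and 0.0465 with slide as a block).

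Hist1h2bc, whose human counterpart can be polyadenylated, read 0.693 and 0.553 in the GFP IP, 3.83 and 3.23 in the PABP1 IP, and 1.10 and 1.26 in input. The groups did not overlap, and the order was PABP1 IP, input, GFP IP. The GFP IP was 5.68-fold lower than the PABP1 IP (-2.51 ± 0.20, adjusted p = 0.000536) and 1.91-fold lower than input (adjusted p = 0.0136), and the PABP1 IP was 2.98-fold higher than input (adjusted p = 0.00251). The difference of the GFP IP from input was -0.35 when arrays were scaled to their median (adjusted p = 0.386) and turned to 0.07 with spike-in scaling. Hist3h2ba, an H2B gene of the Hist3 cluster, had the same order, with 0.987 and 1.16 in the GFP IP, 6.05 and 5.15 in the PABP1 IP, and 2.41 and 2.59 in input. Its GFP IP value was 5.22-fold lower than that of the PABP1 IP (adjusted p = 0.000507), and its PABP1 IP value 2.23-fold above input (adjusted p = 0.00439).

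Hist1h2ba, the H2B gene of the testis, read 5 and 6.33 in the GFP IP, 22.4 and 16.2 in the PABP1 IP, and 22.7 and 21.9 in input. It was 3.96-fold lower in the GFP IP than in input (adjusted p = 0.0026) and 3.38-fold lower than in the PABP1 IP (adjusted p = 0.00185), and the PABP1 IP overlapped input (-0.23 ± 0.23, adjusted p = 0.443). The H2A gene of the testis, Hist1h2aa, read 820 and 1308 in the GFP IP, 1853 and 852 in the PABP1 IP, and 4046 and 3512 in input. Both IPs were below input (adjusted p = 0.0171 and 0.0279), and the GFP IP differed from the PABP1 IP by -0.28 (adjusted p = 0.587), which turned to 1.08 after quantile normalization and 1.64 after cyclic loess. For Hist1h2aa the GFP IP difference from input was -0.46 after quantile normalization (adjusted p = 0.169), -0.73 after cyclic loess (adjusted p = 0.129) and -1.76 without total input replicate 1 (adjusted p = 0.0849). Its PABP1 IP difference from input turned to 0.69 with spike-in scaling (adjusted p = 0.212), and was -1.48 without total input replicate 1 (adjusted p = 0.115).

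Hist2h2be was the only H2B gene tested that was higher in the GFP IP than in the other groups. It read 0.228 and 0.226 in the GFP IP, 0.0368 and 0.0494 in the PABP1 IP, and 0.0369 and 0.115 in input, and only the GFP IP arrays were well above background. It was at least 1.69-fold above input (adjusted p = 0.0378, and 0.0654 with slide as a block) and at least 3.51-fold above the PABP1 IP (adjusted p = 0.0123). After normexp background correction these differences were -0.30 (adjusted p = 0.161) and 0.33 (adjusted p = 0.138). Of the genes with polyadenylated forms reported in human cells, Hist1h2ac was not well above background on any array. Hist1h1c and Hist1h2bc were higher than input in the PABP1 IP. Hist2h2be was at -0.61 there (limma, adjusted p = 0.385), not well above background on the PABP1 IP or input arrays.

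**Figure D5:**
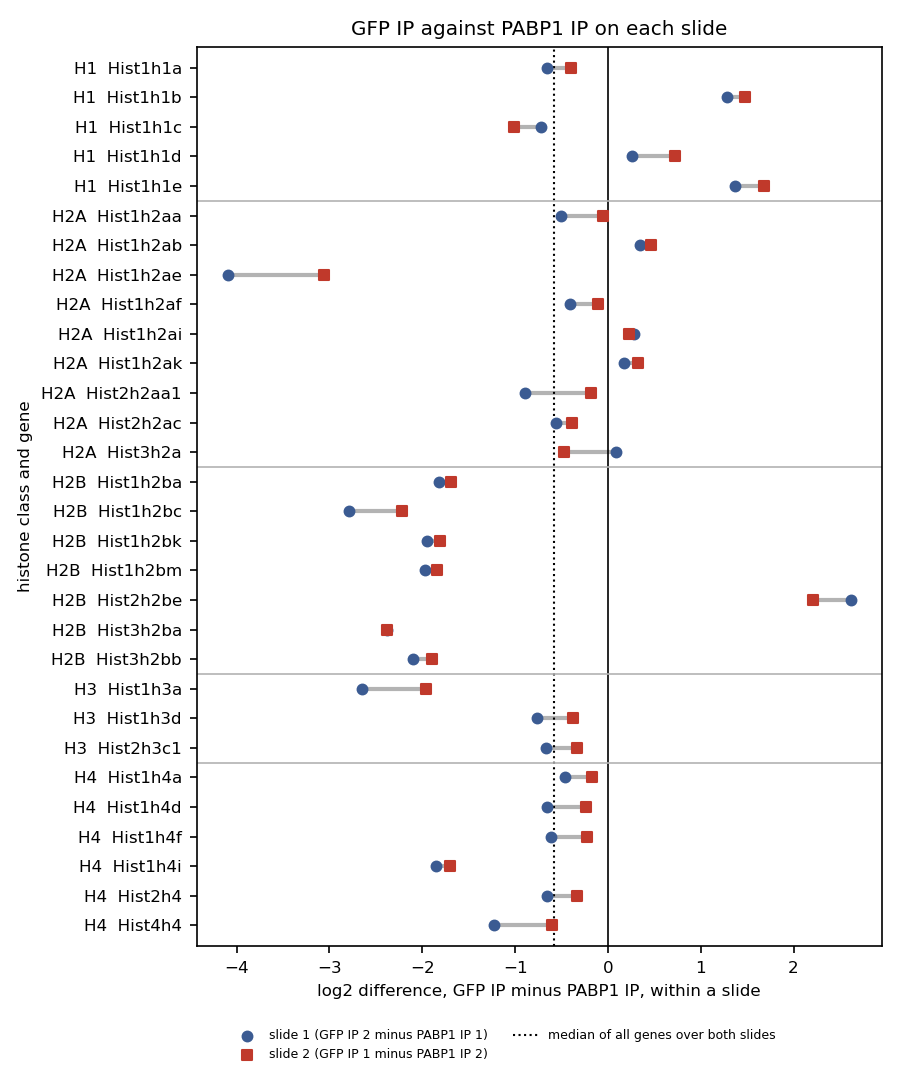
Log2 difference between the GFP IP and PABP1 IP arrays that share a slide, for slide 1 (circles) and slide 2 (squares), with the median of all genes dotted. Of the H2B genes, 6 of the 7 lie between -2.79 and -1.70 on both slides, and with other scalings the medians of H2A, H3 and H4 change sign.

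Core histone H3 was read by 3 genes that split between them. Hist1h3d read 157 and 142 in the GFP IP, 240.2 and 204 in the PABP1 IP, and 146 and 131 in input. The PABP1 IP arrays were highest and the GFP IP overlapped input. The PABP1 IP was 1.59-fold above input (adjusted p = 0.024) and the GFP IP 1.48-fold below the PABP1 IP (-0.57, adjusted p = 0.0354). Both calls depended on the scaling: after quantile normalization they were -0.01 (adjusted p = 0.974) and 0.76 (adjusted p = 0.00594), and after cyclic loess 0.12 (adjusted p = 0.452) and 0.75 (adjusted p = 0.0058).

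Hist2h3c1 read 231 and 232 in the GFP IP, 369.6 and 292 in the PABP1 IP, and 191 and 167 in input, and its PABP1 IP difference of 0.88 (adjusted p = 0.0127) was 0.16 after quantile normalization (adjusted p = 0.381) and 0.29 after cyclic loess (adjusted p = 0.122). Hist1h3a, a dimmer H3 gene, read 0.537 and 0.526 in the GFP IP, 3.30 and 2.08 in the PABP1 IP, and 2.58 and 2.26 in input. Only the GFP IP was set apart, 4.54-fold below input (adjusted p = 0.00269) and 4.94-fold below the PABP1 IP (adjusted p = 0.00114). Its order across groups was that of the H2B genes rather than of the other H3 genes, which was not tested.

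Of 6 core histone H4 genes, 5 were lower than input in the GFP IP and 4 in the PABP1 IP, where spike-in scaling turned their median to 0.93. Hist1h4f read 74.0 and 89.1 in the GFP IP, 136 and 86.6 in the PABP1 IP, and 285 and 278 in input. Both IPs were below input and overlapped each other. The difference from input was -1.80 ± 0.26 in the GFP IP (adjusted p = 0.00432) and -1.38 ± 0.26 in the PABP1 IP (adjusted p = 0.00856). Hist1h4a, Hist1h4d and Hist2h4 were 3.48-fold, 3.60-fold and 3.51-fold lower than input in the GFP IP, and 2.81-fold, 2.64-fold and 2.48-fold lower in the PABP1 IP. Between the IPs they differed by -0.31 to -0.50 and did not pass, although Hist1h4d and Hist2h4 did with slide as a block (adjusted p = 0.0494 and 0.0282). A dimmer probe of Hist1h4d went the other way between the IPs, at 0.40, and did not pass.

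Hist4h4, the gene outside the large clusters, read 7.73 and 4.65 in the GFP IP, 10.9 and 11.8 in the PABP1 IP, and 17.5 and 15.7 in input. Its PABP1 IP difference from input, -0.55, did not pass (adjusted p = 0.146), but did with slide as a block (-0.76, adjusted p = 0.0327). It also passed after cyclic loess, where 5 of the 6 H4 genes were lower than input in the PABP1 IP. The exception among H4 genes was Hist1h4i, which read 2.35 and 2.16 in the GFP IP, 7.78 and 7.68 in the PABP1 IP, and 2.99 and 3.21 in input. The PABP1 IP was 2.5-fold above input (1.32 ± 0.15, adjusted p = 0.00194) and the GFP IP 3.43-fold below the PABP1 IP (adjusted p = 0.000594). Against input the GFP IP difference was -0.46 ± 0.15 (adjusted p = 0.0504, and 0.0414 with slide as a block).

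Several members gave almost the same values after each gene's mean was removed. The largest departure over the 6 arrays was 0.06 between Hist1h2bk and Hist1h2bm, 0.06 between Hist1h2ai and Hist1h2ak, 0.09 between Hist1h4d and Hist1h4f, and 0.10 between Hist1h2aa and Hist1h2af on the log2 scale. Genes of one core histone class have near-identical coding sequences, so a probe may read several copies, and how many genes these probes tell apart was not tested. Counts of members are therefore not counts of independent messages. The other probes of Hist1h4d and Hist1h2af gave -1.61 and -1.80 for the GFP IP and -2.01 and -2.07 for the PABP1 IP against input. Between the IPs they gave 0.40 and 0.26, opposite in sign to the -0.45 and -0.26 of the probes used, and none of these values passed.

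Between slides, 9 of the 30 tested members differed by over 0.5 on the log2 scale in the same direction in both IPs, against 15.9% of all genes (2377 of 14973). Hist1h2ai, Hist1h2ak, Hist2h2aa1 and Hist3h2a were higher on slide 2, and Hist1h1e, Hist1h2aa, Hist1h2ab, Hist1h2af and Hist2h2ac were lower. All but Hist1h1e are H2A genes, and of the H2B, H3 and H4 genes 0 passed this size. Because slide 2 holds no input array, only the comparison of the IPs can be made on both slides. There the H2B difference of Hist1h2bk was -1.95 on slide 1 and -1.81 on slide 2, and that of Hist3h2ba -2.38 and -2.39.

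Other histone genes and the genes that make or handle histone messages gave other values. The list of replication-independent histone genes had 14 genes on the array, of which 12 were tested. Most, but not all, of their messages carry poly(A) tails and are made outside chromosome copying. In the GFP IP 6 were higher than input and 2 lower, and in the PABP1 IP 8 were higher and 1 lower, with medians of 0.80 and 1.27 that were above 0 under each scaling. The GFP IP count was 2 higher and 0 lower without GFP IP replicate 1 and without total input replicate 1 or 2, and the PABP1 IP count 5 and 0 without total input replicate 1. Their medians lay 1.31 and 1.14 above those of all genes. H3f3a, which encodes the replacement histone H3.3, read 119 and 127 in the GFP IP, 186 and 151 in the PABP1 IP, and 53.7 and 48.5 in input. It was 2.41-fold higher than input in the GFP IP (adjusted p = 0.00403) and 3.28-fold higher in the PABP1 IP (adjusted p = 0.00156), above input on every IP array. H3f3b, the other H3.3 gene, differed from input by 0.75 and 1.21 in the GFP IP and the PABP1 IP (adjusted p = 0.0454 and 0.0101), and H2afx, which encodes the variant H2A.X, by 0.85 and 0.95 (adjusted p = 0.016 and 0.0106).

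H2afz, which encodes the variant H2A.Z, was 3.84-fold higher than input in the PABP1 IP (adjusted p = 0.00203) and differed by 0.23 in the GFP IP (adjusted p = 0.418). H2afj, an H2A gene of this list, read 707 and 1141 in the GFP IP, 2098 and 1049 in the PABP1 IP, and 3377 and 3003 in input. As for most replication-dependent genes it was lower than input in the GFP IP, by 3.55-fold (limma, adjusted p = 0.0148). In the PABP1 IP it did not pass. Whether its probe also reads replication-dependent H2A copies was not tested. H1fx, a replication-independent linker histone gene, read 1.55 and 8.72 in the GFP IP, 4.97 and 1.07 in the PABP1 IP, and 36.2 and 44.9 in input, with the lower array of each IP on slide 2. It was 10.96-fold lower in the GFP IP (adjusted p = 0.0378) and 17.5-fold lower in the PABP1 IP (adjusted p = 0.0216) than input.

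Slbp, which encodes the protein that binds the histone stem-loop, read 55.9 and 43.7 in the GFP IP, 8.89 and 9.93 in the PABP1 IP, and 9.1 and 7.91 in input. Against input its message was 5.83-fold higher in the GFP IP (2.54 ± 0.20, adjusted p = 0.00156) and 5.26-fold higher than in the PABP1 IP (adjusted p = 0.000555), with both GFP IP arrays above all others. The list of 25 tested genes for processing and decay of histone messages gave 10 higher, 5 lower and 10 not past in the GFP IP against input, and 11, 9 and 5 in the PABP1 IP. Lsm1, of the ring that starts decay of messages, was 3.40-fold higher in the GFP IP and 6.56-fold higher in the PABP1 IP than input (adjusted p = 0.00184 and 0.000849), while Sympk, of the cleavage complex, was 4.39-fold lower in the GFP IP (adjusted p = 0.00188).

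Counts of the lists of other genes are to be read against the shares of all genes, 18.5% higher and 36.6% lower in the GFP IP and 30.1% and 23.8% in the PABP1 IP. Of 19 tested histone chaperone genes, 6 were higher and 7 lower in the GFP IP than in input, and 5 higher and 11 lower in the PABP1 IP, so the GFP IP count lower is near that of all genes. Nasp, a chaperone of linker and core histones, was 7.03-fold and 3.78-fold lower than input in the GFP IP and the PABP1 IP (adjusted p = 0.00184 and 0.00278). Of 31 tested DNA replication genes, which are active in the same phase of the cell cycle, 5 were higher and 15 lower in the GFP IP, and 5 higher and 8 lower in the PABP1 IP, with medians 0.04 above and 0.11 below those of all genes. Pabpc1, which encodes PABP1, read 139 and 405 in the GFP IP, 659.8 and 228 in the PABP1 IP, and 388 and 474 in input, and passed in none of the 3 comparisons (adjusted p = 0.325, 0.878 and 0.396). Malat1, a nuclear RNA with no poly(A) tail of the usual kind, read 0.468 and 1.18 in the GFP IP, 0.0419 and 0.0352 in the PABP1 IP, where it was not well above background, and 20.7 and 29.2 in input.

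Markers of other cell types differed between the same groups. Summed over 5 cardiac muscle markers the signal was 15.8 and 13.9 in the GFP IP, 89.8 and 83.4 in the PABP1 IP, and 40.8 and 37.8 in input, with 5 of 5 lower in the GFP IP than in input. Myl7 made up 85.3 and 79.6 of the PABP1 IP sums and was the 1 marker higher there than in input, while 2 of 5 were lower, Tnni3 and Mybpc3, and the list's median was -0.20. Summed over 4 fibroblast markers it was 23.9 and 45.2 in the GFP IP, 87.9 and 77.1 in the PABP1 IP, and 64.4 and 94.8 in input, with 3 of 4 lower in the GFP IP than in input and 0 of 4 called either way in the PABP1 IP (limma; adjusted p from 0.255 to 0.973). Over 7 germ cell markers the sum was 82.4 and 102.6 in the GFP IP, 132.6 and 129.9 in the PABP1 IP, and 51.9 and 46.5 in input. Ifitm3 made up 116 and 113 of the PABP1 IP sums. Of the 7, 4 were higher and 2 lower than input in the GFP IP, and 3 higher and 2 lower in the PABP1 IP, where the list's median was 0.12, as for all genes. The part of other cells in the histone values was not tested.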

How the data were processed

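RNA of 6 samples was read on Agilent one-colour arrays. The deposited files of single arrays give a processed intensity per spot, background-subtracted and detrended by Agilent Feature Extraction 9.1.3.1, per the file headers, and flags for spots well above background, saturated or outlying. The authors also deposited a table of group means of signal, background-subtracted and normalised to the median in GeneSifter, per the file headers; it entered no test. A genome build is not given in the sources used here.

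Outlier spots were left out, spots of a probe were averaged on the log2 scale, and the 75th percentile of the array's probes was subtracted. Each gene was read by its probe with the highest mean over the 6 arrays. Differences were fitted by lmFit and eBayes (limma 3.58.1, R 4.3.3) from the 6 arrays together, on group alone, which leaves 3 residual degrees of freedom. Two-sided p-values were adjusted over 14973 genes by Benjamini-Hochberg and called under 0.05. Each ± is a standard error (SE), and the number of arrays limits the precision. Where a gene was well above background in only 1 of the groups compared, the fold is a lower bound against the lowest signal well above background. Data were simulated for 14973 genes, with 100 changes of 2 and 100 changes of 1 on the log2 scale set in the GFP IP. The fit against input recovered 47 and 2 of them, and the fit between the IPs 47 and 0. Far more genes, 8248, were called against input in the data, where the adjustment is therefore less strict. These shares do not give the power of the fits here, and a gene that did not pass may still differ.

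Members and gene lists were chosen with earlier results of these data known. In each class and comparison, up to 3 members with the largest differences past the threshold in each direction are named, then germ line members and those with polyadenylated forms; other members may be given, and other lists by counts and up to 4 genes. Of the members, 31 were matched to RefSeq by accession and 3 by name. Alternatives were normexp background correction, other scalings (median of all probes, quantile, cyclic loess, 8 spike-in probes), other filters and probe rules, slide or replicate number as a block, slide 1 alone, the 4 arrays of the groups compared, and leaving out each array.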

Additional observations from a re-analysis of the deposited data

How the results depend on the processing

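Medians here are those of the members minus that of all genes. For the GFP IP against input (8248 genes called, 23 members lower, 1 higher, median -1.16), the genes called were 5357 with the median of all probes, 4325 with spike-in scaling and 14784 with no filter on dim probes. Members higher numbered 2 with normexp, the median of all probes, spike-in scaling or every kept probe on its own, 3 after quantile normalization or cyclic loess, and 0 with all 6 arrays above background, slide as a block, slide 1 alone or only the 4 arrays compared; members lower were 0 with spike-in scaling. The median was -0.60 with normexp and -0.57 with no filter. Leaving out 1 array gave 4133 to 8356 genes called, 0 to 1 members higher and 14 to 23 lower, with medians from -1.19 to -1.13. For the PABP1 IP against input (8072 genes called, 14 members lower, 7 higher, median -0.84), spike-in scaling called 12974 genes, with 16 members higher and 0 lower. The median was -0.38 with normexp, -1.09 after quantile normalization, -1.02 after cyclic loess, -0.29 with no filter, -1.15 with all 6 arrays above background, -0.75 with the mean of kept probes, -0.93 with every kept probe, -1.28 with slide as a block and -1.17 on slide 1 alone. Leaving out 1 array gave 5044 to 7980 genes called, 4 to 7 members higher and 9 to 14 lower, with medians from -1.18 to -0.50. For the GFP IP against the PABP1 IP (9523 genes called, 12 members lower, 3 higher, median 0.08), members higher numbered 5 with the median of all probes or slide as a block, 10 after quantile normalization, 13 after cyclic loess and 1 with spike-in scaling, which gave 23 lower. The median was -0.028 with normexp, 0.70 after quantile normalization, 0.76 after cyclic loess, -0.14 with no filter, -0.048 with every kept probe and -0.046 on slide 1 alone. Leaving out 1 array gave 7896 to 9042 genes called, 2 to 3 members higher and 10 to 16 lower, with medians from -0.13 to 0.12. Without total input replicate 1 or 2, 4133 or 4777 genes were called in the GFP IP and 5101 or 5044 in the PABP1 IP against input. The causes were not tested. Over the 30 tested members in the 3 comparisons, 1428 values under the alternatives kept direction and side of the threshold, 133 lost the call, 70 gained one, 30 changed sign with a call in at least 1 setting and 43 changed sign without one. With no IP from untagged cells or with an unrelated antibody, a difference shared by both IPs cannot be told apart from one that any IP would give, and with 2 arrays per group and no input array on slide 2 the comparisons with input rest on slide 1 for the slide-matched values. Dim members such as Hist1h2ae and Hist2h2be are limited by background.

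Differences that changed sign with a call were, with spike-in scaling, Hist1h2bc in the GFP IP against input (0.074) and, in the PABP1 IP against input, Hist1h1a (0.84), Hist1h2aa (0.69), Hist1h2ab (0.18), Hist1h2af (0.67), Hist1h2ai (0.56), Hist1h2ak (0.59), Hist2h2aa1 (1.69), Hist2h2ac (0.85), Hist3h2a (1.46), Hist1h2ba (2.05), Hist2h2be (1.66), Hist1h4a (0.79), Hist1h4d (0.88), Hist1h4f (0.90), Hist2h4 (0.96) and Hist4h4 (1.73). Hist2h2be turned in the GFP IP against input with normexp (-0.30), and Hist1h3d in the PABP1 IP against input after quantile normalization (-0.0059). Between the IPs, quantile normalization and cyclic loess turned Hist1h2aa (1.08 and 1.64), Hist1h2af (1.22 and 1.61), Hist2h2ac (0.91 and 1.39), Hist1h3d (0.76 and 0.75) and Hist2h3c1 (0.93 and 0.91), and cyclic loess turned Hist1h4f (0.85).

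Whether the replicate numbers pair the samples cannot be told here. Between the IPs, arrays of the same number lie on different slides, so pairing and slide cannot be separated. Replicate differences correlated at -0.651 between the GFP IP and the PABP1 IP, -0.058 between the GFP IP and input, and 0.20 between the PABP1 IP and input. With the replicate block 7054, 7110 and 8587 genes were called in the 3 comparisons in the order above, with 1, 7 and 2 members higher and 21, 12 and 12 lower. A crossed pairing of the IP arrays, added after the data were seen, joined the IP arrays that share a slide. It is therefore the slide block without the input arrays and not a separate check. It called 11601 genes between the IPs, with 3 members higher and 16 lower, and the slide block called 11502 genes.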

Other observations

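The authors' deposited table gives group means for the histone members on another scale, with no spread between arrays usable here. For the H2B genes other than Hist2h2be, its ratio of the GFP IP to the PABP1 IP was 0.236 for Hist3h2ba, 0.253 for Hist1h2bc, 0.296 for Hist3h2bb, 0.354 for Hist1h2bm, 0.364 for Hist1h2ba, and 0.357 and 0.451 for the rows of Hist1h2bk in the authors' deposited table, all under 1 as in the scanner files. In the authors' deposited table Hist1h2bc stood above input in the GFP IP (ratio 2.89), where the scanner files gave 1.91-fold lower. Hist4h4 stood there at 1.06 and 1.65 times input in the GFP IP and the PABP1 IP, against -1.47 and -0.55 on the log2 scale here. Hist1h4i stood at 1.32 times input in the GFP IP (-0.46 here), and Hist2h2aa1 at 1.57 times input in the PABP1 IP (-0.58 here). The 2 Hist3h2a rows of the authors' deposited table stood at 4.04 and 6.79 times input in the GFP IP and at 5.23 and 5.91 times input in the PABP1 IP, against differences of -1.01 and -0.82 on the log2 scale for the probe used here and 1.69 and 1.80 for another Hist3h2a probe of the scanner files. Which probe each row of the authors' deposited table holds was not tested, for Hist3h2a or for the other genes.

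Pluripotency genes gave another picture than the histone genes. Of 7 tested, 4 were higher and 0 lower in the GFP IP than in input, and 2 were higher and 2 lower in the PABP1 IP. Sox2 was 4.36-fold above input in the GFP IP (adjusted p = 0.0015), and Pou5f1 was 3.98-fold lower in the GFP IP than in the PABP1 IP (adjusted p = 0.00295).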
